A study of Mus musculus with 3 samples.

Results

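The genes described here build the tight junction and set the polarity of epithelial cells. They were chosen by symbol: all claudins (*Cldn*), the zonula occludens proteins (*Tjp*), the junctional adhesion molecules (*Jam*), the Par-3 and Par-6 genes (*Pard3* and *Pard6*), the MARVEL-domain genes (*Marveld*), the Crumbs genes (*Crb*), the membrane palmitoylated proteins (*Mpp*), and *Ocln*, *F11r*, *Cgn*, *Prkci*, *Prkcz*, and *Cxadr*. Of the 30854 gene symbols in the deposited table, 51 met this rule. RNA of the embryonic region of wild-type Cd-1 mouse embryos at the early headfold (EHF) stage was hybridized to 3 Illumina bead arrays, labelled replicates 1, 2, and 3. No mutation, transgene, or treatment is named for these embryos, and there is a single group, so each gene could be set only against the background of its own arrays. The paper describes embryos cut along the junction of the embryonic and extraembryonic regions, with the embryonic portion retained. The labels give the strain as Cd-1 and an RNeasy kit for the RNA, whereas the paper lists ICR as its wild-type stock and TRIzol. The design text speaks of 3 samples per well, and whether an array holds 1 embryo or a pool is not settled, so the spread between arrays may be technical.

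Tight junctions seal the space between neighbouring epithelial cells near their apical surface. Claudins form the paired strands that close this space or, for some members, pores that let ions through. Occludin and some of its MARVEL-domain relatives accompany the strands. Immunoglobulin-like proteins add adhesion, and the zonula occludens proteins and cingulin tie the strands to actin. The Par complex, made of Par-3, Par-6, and an atypical protein kinase C, and the Crumbs complex, made of a Crumbs protein and the scaffold Pals1, mark the apical side. In the headfold embryo the epithelia include the neural plate, the surface ectoderm, the gut endoderm, and the node, whereas the mesoderm has left the epithelial state. An array of the whole embryonic region cannot tell fewer cells of a type from less RNA per cell.

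Each array carries negative-control probes, and for a gene with 1 probe the detection p moves in steps of 1 in 936, as a share of such controls would. For the 20 genes with several probes it need not keep to these steps and is a value for all probes together, whose calculation is not given in the sources used here. Genes with a detection p under 0.01 on all 3 arrays were called detected. This was the case for 13 of the 51 genes (25.5%), beside 20.6% of all symbols. A further 9 genes met the threshold on 1 or 2 arrays, beside 12.4% of all symbols, so that 22 genes met it on at least 1 array, beside 33.0%. The other 29 genes met it on no array. The 13 genes are the claudins *Cldn2*, *Cldn4*, *Cldn6*, *Cldn9*, and *Cldn11*, the MARVEL-domain gene *Marveld1*, the adhesion genes *F11r* and *Cxadr*, the scaffold *Tjp1*, the Par complex genes *Pard6a*, *Pard6g*, and *Prkcz*, and *Mpp6*. Each functional group, as formed by gene symbol, thus had at least 1 detected gene. In the occludin family this was *Marveld1* and not *Ocln* itself. The share was 5 of 21 claudins, 1 of 4 occludin family genes, 2 of 5 adhesion genes, 1 of 4 scaffolds, 3 of 7 Par complex genes, and 1 of 10 Crumbs and *Mpp* genes. These shares rest on few genes each and are given as counts.

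**Figure D1:**
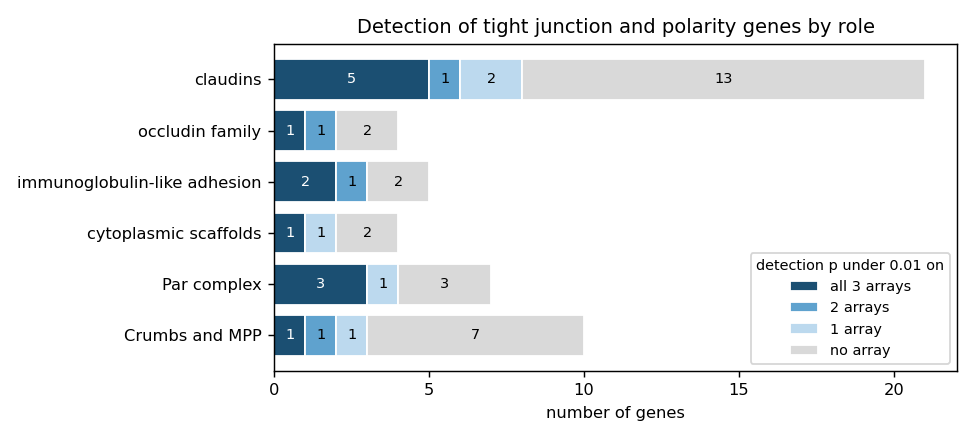
Number of genes (horizontal axis) in each functional group, split by the number of arrays on which the detection p was under 0.01. Claudins are the largest group, with 5 of 21 genes detected on all 3 arrays and 13 on none.

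Levels are given on 2 scales. The deposited log2 signal is the value before any normalization between arrays. As its background level the lowest signal was taken that still had a detection p under 0.01 (but not 0) among symbols with a single probe. It was 6.69, 6.66, and 6.58 for replicates 1 to 3. The deposited signal was above it on every array for 17 of the 51 genes, beside 26.3% of all symbols. The level above background is the background-corrected and quantile-normalized log2 value minus the background level of the same array. On this scale the background levels were 4.68, 4.81, and 5.08, and the SD given with a level also holds their differences. A one-sided limma fit over all 30854 symbols asked whether the level exceeded 0. It called 18 of the 51 genes (35.3%) beside 25.7% of all symbols, among them all 13 detected genes. The fit gave each symbol the same standard error, 0.15, and treated the spread as known, so its own p-values are not given. The range of a level over the alternative settings is given instead, with limma's adjusted p only where it is the largest of these or where a call was lost. Several alternatives, among them those without a replicate, also gave the called genes a common standard error. Their adjusted p-values carry the same limit. A signal also depends on how well its probe hybridizes, so levels of different genes are not compared here.

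**Figure D2:**
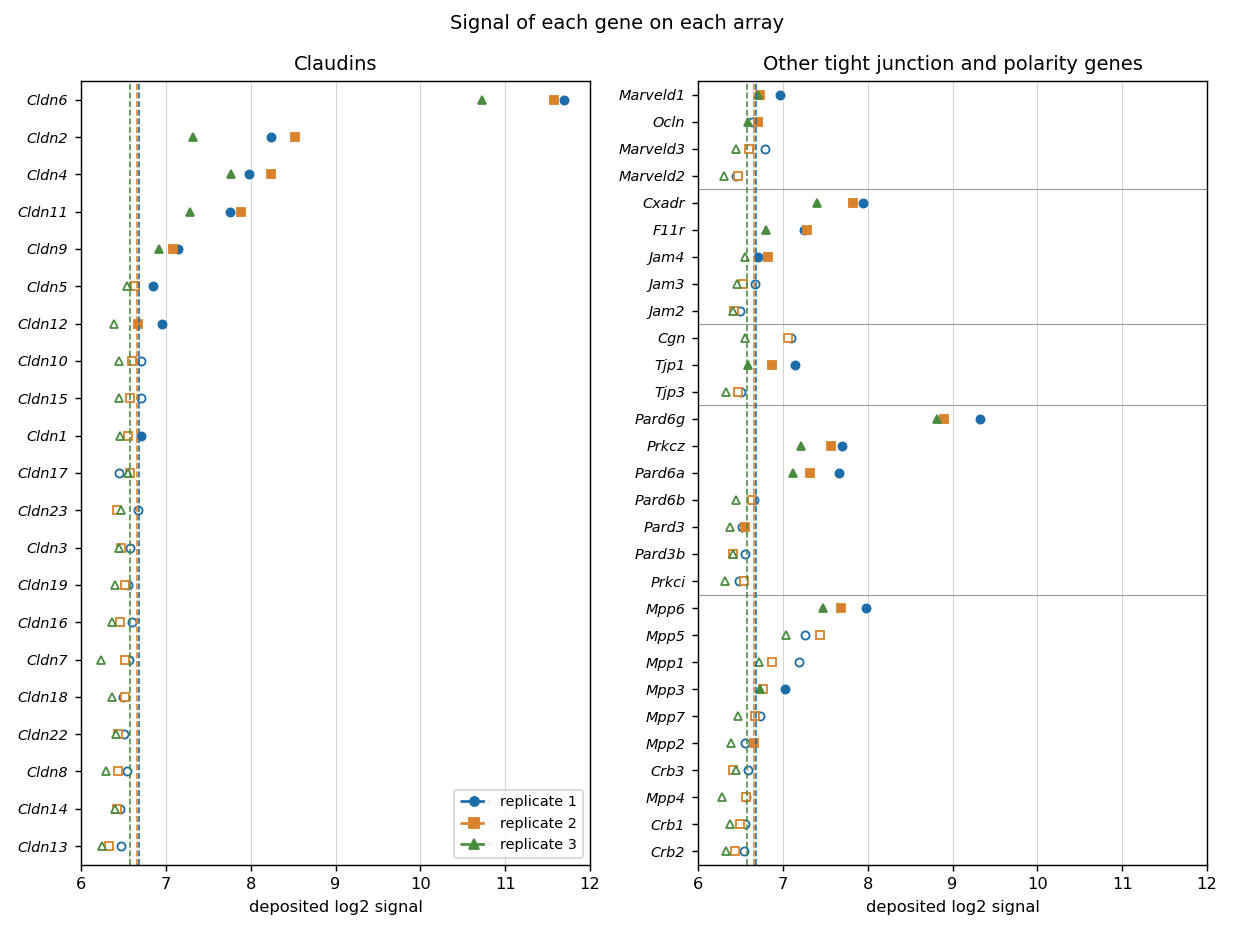
Deposited log2 signal (horizontal axis) of each gene reported here on replicates 1 (circles), 2 (squares), and 3 (triangles), with filled symbols where the detection p was under 0.01 and dashed lines at the background level of each array. *Cldn6* lies between 10.73 and 11.69, and most other claudins lie at or below the dashed lines.

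Among the claudins, *Cldn6*, a claudin known from embryonic epithelia, gave log2 signals of 11.69, 11.57, and 10.73 in the order of the replicates, as for all genes below. All 3 values were far from background, with a detection p of 0 on each array, and replicate 3 was the lowest. Its level was 6.46 above background (SD 0.40, n = 3), and between 4.69 and 7.03 over 9 alternative settings, with a largest adjusted p from limma of 0.00011. *Cldn9*, which lies next to *Cldn6* in the genome with no other gene between them in the RefSeq table, had signals of 7.15, 7.08, and 6.91. These were close to each other and all above background, and the level was 1.09 above it (SD 0.04, n = 3), from 0.41 to 1.65 over the alternatives. Before the background level was subtracted, the SD of its normalized values was 0.17.

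*Cldn2*, which forms a pore for cations and water in leaky epithelia, had log2 signals of 8.24, 8.52, and 7.32. Replicate 3 was the lowest, and the level above background, 2.69, had the widest spread of the 13 detected genes (SD 0.75, n = 3) and ranged from 1.38 to 3.25 over the alternatives. *Cldn4*, a sealing claudin of many epithelia, had signals of 7.98, 8.24, and 7.77 and a level of 2.68 above background (SD 0.26, n = 3), with a range of 1.35 to 3.24. *Cldn11*, known from myelin and from Sertoli cells, had signals of 7.75, 7.89, and 7.28. Its level was 2.16 above background (SD 0.37, n = 3), with a range of 1.00 to 2.72. For each of these genes every array was above its background level, and limma called each of them in 9 of 9 alternative settings.

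The upstream sequences of 4 detected claudins and of *Cldn3* are shown because *Cldn4* and *Cldn3* are neighbours in the genome, the former detected on all 3 arrays and the latter on none. They are the 250 bases before the annotated transcription start from RefSeq (GRCm38.p6), written 5′ to 3′ along the gene. Capitals mark 3 motifs searched on both strands: the E-box CACCTG, to which repressors of the Snail and Zeb families can bind, the GC box GGGCGG, and the TATA box TATAAA. No 2 matches overlap in these windows.
Cldn6 (chr17:23679115-23679364, + strand): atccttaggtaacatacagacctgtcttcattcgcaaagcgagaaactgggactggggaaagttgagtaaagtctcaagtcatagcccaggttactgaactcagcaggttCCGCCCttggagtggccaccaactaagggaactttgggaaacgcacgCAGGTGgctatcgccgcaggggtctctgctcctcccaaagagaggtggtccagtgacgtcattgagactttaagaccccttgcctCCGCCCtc
Cldn4 (chr5:134946935-134947184, - strand): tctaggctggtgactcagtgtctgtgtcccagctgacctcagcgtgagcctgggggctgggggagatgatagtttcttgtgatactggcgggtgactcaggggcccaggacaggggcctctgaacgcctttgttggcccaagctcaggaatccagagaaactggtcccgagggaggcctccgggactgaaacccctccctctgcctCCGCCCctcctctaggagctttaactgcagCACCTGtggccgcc
Cldn3 (chr5:134985964-134986213, + strand): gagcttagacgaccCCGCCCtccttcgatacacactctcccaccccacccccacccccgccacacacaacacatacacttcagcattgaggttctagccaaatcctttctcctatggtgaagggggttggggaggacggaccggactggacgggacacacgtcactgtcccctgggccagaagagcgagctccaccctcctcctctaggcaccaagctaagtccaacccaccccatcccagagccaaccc
Cldn2 (chrX:139800558-139800807, + strand): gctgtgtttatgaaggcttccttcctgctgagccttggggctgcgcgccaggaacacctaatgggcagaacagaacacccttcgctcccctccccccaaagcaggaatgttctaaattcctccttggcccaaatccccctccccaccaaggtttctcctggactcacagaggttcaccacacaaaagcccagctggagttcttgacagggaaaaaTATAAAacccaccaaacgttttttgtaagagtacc
Cldn11 (chr3:31149670-31149919, + strand): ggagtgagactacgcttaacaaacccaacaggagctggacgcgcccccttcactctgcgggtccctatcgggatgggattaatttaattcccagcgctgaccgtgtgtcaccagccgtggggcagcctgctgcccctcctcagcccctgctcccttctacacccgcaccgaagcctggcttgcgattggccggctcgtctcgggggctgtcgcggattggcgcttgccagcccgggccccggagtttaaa

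The E-box letters are in the windows of *Cldn6* and *Cldn4*, and the TATA box letters are in that of *Cldn2*, starting 35 bases before the transcription start. A GC box match is in the windows of *Cldn6*, *Cldn4*, and *Cldn3*, and the window of *Cldn11* holds none of the 3 motifs. The *Cldn6* gene itself is annotated from a position just before the start used for its window, so the last bases of that window, with the GC box nearest to the start, lie inside the annotated gene. A window was listed for 37 of the 51 genes, 10 of the 13 detected ones, and some genes have several. Of all 32851 windows in the table, 17.2% hold the E-box, 32.7% the GC box, and 12.4% the TATA box. Of the 56 windows of these genes, the shares were 26.8%, 60.7%, and 7.14%. The E-box letters were in a window of 5 of the 10 detected genes and of 7 of the 27 other genes, beside 19.4% of all symbols with a window. For the GC box these counts were 7 of 10 and 18 of 27, beside 35.4%, and for the TATA box 1 of 10 and 2 of 27, beside 14.3%. A gene counted if any of its windows matched, so these counts favour genes with several windows. The 37 genes have 56 windows, and all 27025 symbols have 32851. These matches describe the sequence only.

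Of the other 16 claudins, *Cldn12* passed the detection threshold on 2 arrays, and *Cldn1* and *Cldn5* on 1 each. *Cldn12* had signals of 6.95, 6.67, and 6.39, with detection p-values of 0, 0.00641, and 0.460, so the arrays lay on both sides of background. *Cldn5*, the main claudin of blood vessels, had signals of 6.85, 6.63, and 6.54, with detection p-values of 0.00107, 0.0160, and 0.0192, and was called when the threshold was relaxed to 0.05. *Cldn1*, a barrier claudin of the epidermis, had signals of 6.70, 6.56, and 6.45 and passed on replicate 1. The remaining 13 claudins were detected on no array, with signals from 6.23 to 6.71. They are *Cldn3* and *Cldn7*, 2 common epithelial claudins, and *Cldn8*, *Cldn10*, *Cldn13* to *Cldn19*, *Cldn22*, and *Cldn23*, several of which are known from kidney, stomach, lung, or inner ear.

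In the occludin family, *Marveld1* had log2 signals of 6.97, 6.73, and 6.71 from 2 probes and passed the detection threshold on all arrays. Its level was 0.49 above background (SD 0.23, n = 3), with a range of 0.16 to 1.05, and limma no longer called it without replicate 1 (adjusted p = 0.0962) or with median scaling (adjusted p = 0.0678). *Ocln*, which encodes occludin, had signals of 6.63, 6.70, and 6.59 and detection p-values of 0.0470, 0.00321, and 0.00855. It passed on replicates 2 and 3 and missed on replicate 1, and its level was 0.02 above background (SD 0.15, n = 3), a difference within the spread between arrays. *Marveld2*, which encodes tricellulin of the corners where 3 cells meet, and *Marveld3* passed on no array.

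Among the immunoglobulin-like genes, *Cxadr*, the coxsackievirus and adenovirus receptor of cell contacts, had log2 signals of 7.95, 7.83, and 7.41. Its level was 2.29 above background (SD 0.25, n = 3), with a range of 1.09 to 2.86. *F11r*, which encodes JAM-A, had signals of 7.25, 7.28, and 6.80 and a level of 1.19 (SD 0.41, n = 3), with a range of 0.46 to 1.75. Both genes had a detection p of 0 on each array, with replicate 3 the lowest. *Jam2* and *Jam3*, whose products are known from endothelial contacts, passed on no array. *Jam4* passed on replicates 1 and 2, with signals of 6.70, 6.82, and 6.55 and a level of 0.14 (SD 0.33, n = 3). It is an older symbol of *Igsf5*, which the table also lists in its own right, with signals of 6.58, 6.52, and 6.44 and no detection on any array, so the 2 entries of this gene differed in their call.

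Among the scaffolds, *Tjp1*, which encodes ZO-1, had log2 signals of 7.14, 6.87, and 6.59 from 1 probe and detection p-values of 0, 0.00107, and 0.00855. On replicate 3 it was just above background, and its level of 0.58 had a wide spread (SD 0.53, n = 3) and a range of 0.20 to 1.15. The limma call was lost without replicate 1 (adjusted p = 0.152) and with median scaling (adjusted p = 0.143). *Cgn*, which encodes cingulin, had signals of 7.10, 7.06, and 6.55 from 3 probes and passed the detection threshold on no array. Its level was 0.65 above background (SD 0.69, n = 3), with a range of 0.23 to 1.21, and it was not called without replicate 2 (adjusted p = 0.140) or with median scaling (adjusted p = 0.130). *Tjp3*, which encodes ZO-3, passed neither test.

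Limma called 5 genes that had no detection call on all arrays, among them *Cgn*, *Mpp1*, *Mpp3*, and *Mpp5*, beside 6.07% of all symbols. All 5 have several probes on the array, whereas of the 31 genes with 1 probe none was called by limma alone. Over the whole table limma alone called 19.8% of 8190 symbols with several probes and 0.491% of 21998 symbols with 1 probe. For such symbols the table holds 1 value per array for all probes together, so single probes could not be read apart, and the cause of the difference between the calls was not tested.

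**Figure D3:**
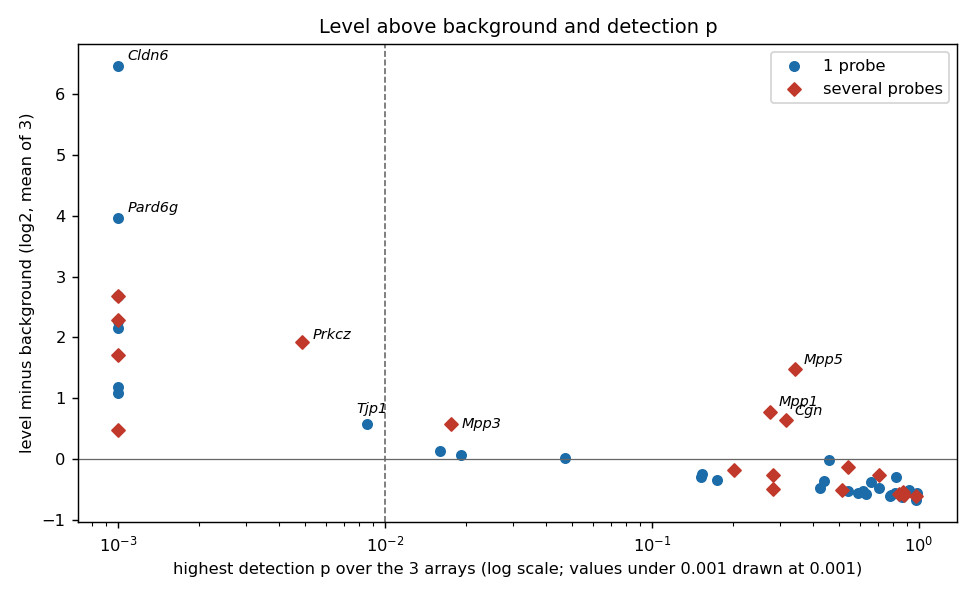
Mean level above background on the log2 scale (vertical axis, n = 3) against the highest detection p over the 3 arrays (horizontal log axis, values under 0.001 drawn at 0.001) for the genes reported here, with circles for 1 probe and diamonds for several. The dashed line is the threshold of 0.01, and *Mpp5*, *Mpp1*, *Cgn*, and *Mpp3* lie to its right at levels above 0.

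In the Par complex, *Pard6g*, one of the genes for the Par-6 adaptor, had log2 signals of 9.32, 8.90, and 8.82. All 3 were far above background, with a level of 3.97 (SD 0.20, n = 3) and a range of 2.37 to 4.53. *Pard6a* had signals of 7.67, 7.32, and 7.12 and a level of 1.71 (SD 0.28, n = 3), with a range of 0.73 to 2.28. *Pard6b* had signals of 6.66, 6.64, and 6.45 and passed on no array. *Prkcz*, which encodes the atypical protein kinase C zeta, had signals of 7.70, 7.57, and 7.22, with detection p-values of 0.000621, 0.00487, and 0.00128. Its level was 1.92 (SD 0.23, n = 3), with a range of 0.85 to 2.49.

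The other atypical kinase gene, *Prkci*, had log2 signals of 6.48, 6.54, and 6.32 from 1 probe, below the background level on every array. *Pard3*, which encodes the scaffold Par-3, had signals of 6.52, 6.55, and 6.38 from 4 probes and passed on replicate 2 only. Its relative *Pard3b* passed on no array. The signals of *Pard3* were below the background level on each array. Which part of the transcripts the probes of *Prkci* and *Pard3* cover is not known here, so their calls describe these probes and not every transcript of the gene. The same limit holds for every other gene without a detection call.

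In the Crumbs and *Mpp* group, *Mpp6*, which encodes the membrane-associated guanylate kinase Pals2, had log2 signals of 7.98, 7.69, and 7.48 and a level of 2.28 above background (SD 0.20, n = 3), with a range of 1.07 to 2.84. It was the only gene of the group with a detection p under 0.01 on all arrays. *Mpp5*, which encodes the Crumbs partner Pals1, had signals of 7.26, 7.44, and 7.04 from 2 probes, each above background, and detection p-values of 0.118, 0.232, and 0.342. Its level of 1.48 (SD 0.28, n = 3), with a range of 0.61 to 2.05, was called by limma in the 8 alternatives that could test it. *Mpp1*, known as p55 of red cells, had detection p-values of 0.127, 0.276, and 0.176 and a level of 0.78 (SD 0.34, n = 3), with a range of 0.28 to 1.35. *Mpp3*, which missed the detection threshold on replicate 2 (0.0176), had a level of 0.57 (SD 0.24, n = 3), with a range of 0.19 to 1.14. With median scaling their limma calls were close to the threshold of 0.05 (adjusted p = 0.0473 for *Mpp1* and 0.0491 for *Mpp3*). The 3 Crumbs genes, *Crb1*, *Crb2*, and *Crb3*, each with 1 probe, had signals from 6.32 to 6.59 and passed on no array. *Mpp2* passed on replicate 2, and *Mpp4* and *Mpp7* on none.

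Of the genes nearest to the threshold, *Tjp1* was the last inside it, with a highest detection p of 0.00855, after *Prkcz* with 0.00487. *Jam4* (0.0160), *Mpp3* (0.0176), and *Cldn5* (0.0192) were the first outside.

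The 13 detected genes differed between arrays in their deposited signals, which were lowest on replicate 3 for all 13. The same held for 93.4% of the 6357 symbols detected on all arrays. After quantile normalization, 7 of the 13 genes were highest on replicate 2, 4 on replicate 3, and 2 on replicate 1, beside 29.4%, 41.2%, and 29.4% of all detected symbols. The median difference between an array and the average of the remaining arrays was -0.01, 0.08, and -0.06 for replicates 1 to 3. Over all detected symbols it was -0.01, -0.01, and 0.03. With median scaling in place of quantile normalization the median of the 13 genes was 0.22 for replicate 1 and -0.30 for replicate 3. The median SD of a gene over the arrays was 0.22 for these genes and 0.17 for all detected symbols (n = 3 arrays).

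Single genes moved further than the median. *Cldn2* had normalized log2 levels of 7.54, 8.16, and 6.94, so that replicate 2 exceeded the average of replicates 1 and 3 by 0.92 and replicate 3 lay 0.91 below that of replicates 1 and 2. *Cldn4* had 7.17, 7.79, and 7.64, with replicate 1 the lowest. *Cldn11* and *F11r* were higher on replicate 2 by 0.47 and 0.45, and *Tjp1* was lower on replicate 3 by 0.51. Of the 13 genes, 4 were lowest on replicate 2. The difference of that array from the average of the others was -0.42 for *Marveld1* and -0.33 for *Pard6g*. For *Pard6a* it was -0.24 and for *Mpp6* -0.18. Markers of visceral endoderm, the epithelium that surrounds the early embryo, were all detected, 12 of 12, beside 20.6% of all symbols. Their median difference on replicate 2 was 0.56, beside -0.01 for all detected symbols. Their summed linear signals were 15001, 16024, and 7642 on replicates 1, 2, and 3, before normalization, beside 4690164, 4124200, and 3105599 for all detected symbols, which were lowest on replicate 3 too. At headfold stages the paper found RNA of the visceral endoderm marker *Apoc2* in extraembryonic visceral endoderm and not in the gut endoderm. Whether these arrays hold RNA of extraembryonic visceral endoderm was not tested. Whether the amount of visceral endoderm has a part in the values of *Cldn2* was not tested either.

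**Figure D4:**
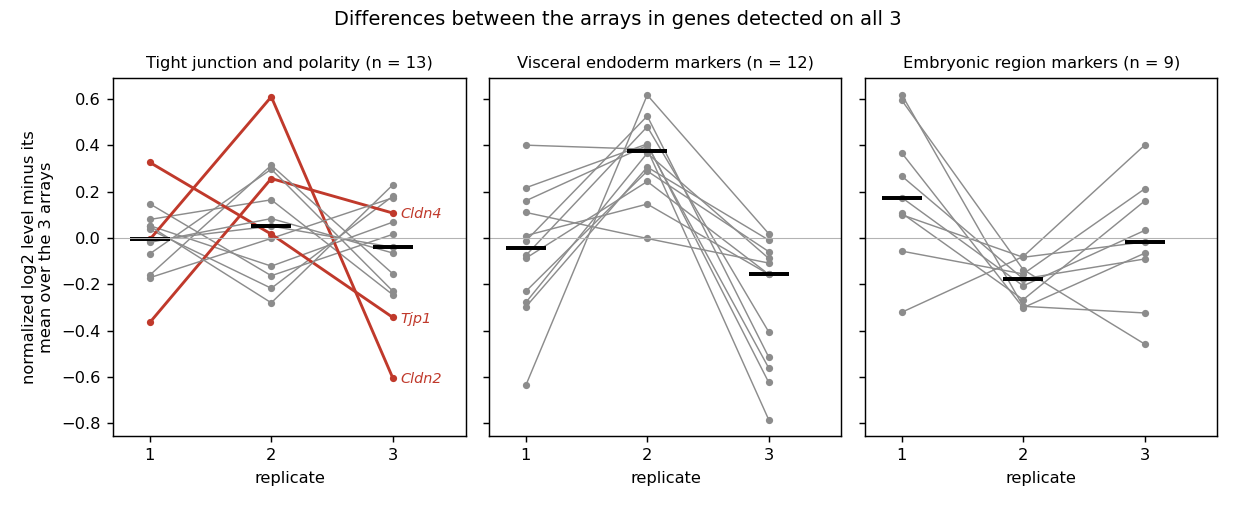
Normalized log2 level of each gene minus its mean over the 3 arrays (vertical axis) by replicate, for the 13 detected tight junction and polarity genes, 12 visceral endoderm markers, and 9 embryonic region markers. Thin lines join the values of 1 gene and black bars are medians. Of the red lines, that of *Cldn2* is highest on replicate 2 and lowest on replicate 3, and 10 of the 12 visceral endoderm markers are highest on replicate 2.

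The error over beads within an array gives the precision of a single signal. For the 8 detected genes with 1 probe, the error over beads, expressed on the log2 scale, was between 0.06 and 0.11, from 23 to 60 beads per probe over all 51 genes. The SD of the deposited signal over arrays was between 0.12 and 0.52 and exceeded the bead error for 8 of 8 genes, beside 4418 of 4588 detected symbols with 1 probe, in signals that also hold the differences in brightness between arrays. After normalization the SD of *Mpp6*, 0.11, was no larger than its bead error, 0.11, and those of the other 7 genes were larger than theirs. The bead error was not carried to the normalized scale, so this SD and the bead error are on different scales. For *Cldn6* the bead error was 0.09 and the SD of the deposited signal 0.52, and for *Cldn9* they were 0.07 and 0.12.

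Other genes of the same structures and cell types were counted from lists, each to be read beside the 20.6% of all symbols that were detected on all arrays and the 25.7% that limma called. Of 18 further genes of the tight junction plaque on the array, 6 were detected on all arrays and limma called 7. *Amotl1*, which encodes an angiomotin-like protein, had log2 signals with a mean of 8.77 (SD 0.33, n = 3). *Tjap1*, detected on 2 arrays, had one of 7.75 (SD 0.30), *D1Ertd471e*, an older symbol of *Ildr2*, one of 7.74 (SD 0.16), and *Ybx3*, which encodes the ZO-1 partner ZONAB, one of 7.57 (SD 0.23). Of 19 further polarity genes, 10 were detected, beside 20.6% of all symbols, and limma called 13, beside 25.7%. *Llgl1* and *Llgl2*, the lethal giant larvae genes of the basolateral side, had mean signals of 10.96 (SD 0.21) and 9.96 (SD 0.40). *Mark2*, which encodes the kinase Par-1b, had 9.10 (SD 0.34), and *Tiam1*, which encodes an activator of Rac, had 8.91 (SD 0.17).

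Adherens junctions lie just below tight junctions and are built on cadherins and catenins. Of 13 such genes, 4 were detected, beside 20.6% of all symbols, and limma called 8, beside 25.7%. *Ctnnd1* and *Jup*, with 1 probe each, had signals from 6.28 to 6.61 and passed on no array. *Ctnna1*, which encodes alpha-catenin, had a log2 signal of 11.56 on average (SD 0.46, n = 3). *Pkp4*, detected on 2 arrays, had a mean of 9.29 (SD 0.29), and *Pvrl2*, an older symbol of *Nectin2*, one of 9.06 (SD 0.31). *Ctnnb1*, which encodes beta-catenin, had a mean of 9.04 (SD 0.67). *Cdh1*, which encodes E-cadherin, had signals of 8.55, 8.20, and 7.78 from 2 probes but no detection call, and limma called it. Of 8 epithelial markers, 5 were detected, among them *Krt8*, *Krt18*, and *Rbm35a*, an older symbol of *Esrp1*, and 7 were called by limma. The exception, *Tacstd1*, an older symbol of *Epcam*, had signals of 6.51, 6.39, and 6.29 from 1 probe. Of 8 mesenchymal markers, 2 were detected, *Zeb1* and *Twist1*, a share near the 20.6% of all symbols, and limma called 6, beside 25.7%. *Pdgfra*, detected on 1 array and called by limma, had signals of 8.50, 8.15, and 7.77. Of 11 markers of the embryonic region, 9 were detected, among them *Otx2* and *Meox1*, and *Hesx1* and *Six3* were not. Of 9 genes listed as extraembryonic ectoderm markers, 5 were detected and limma called 5, in both cases *Bmp4*, *Cdx2*, *Ets2*, *Rhox5*, and *Tcfap2c*. The others, *Elf5*, *Eomes*, *Ascl2*, and *Gcm1*, passed on no array. Whether the 5 detected genes mark that tissue at this stage was not tested.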

How the data were processed

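Total RNA of the embryonic region at the EHF stage was hybridized to Illumina Mouse-6 bead arrays, 3 in all, which form 1 group. The authors deposited log2 signals per gene symbol, not normalized between arrays, with mean bead numbers, the bead standard error on the linear signal scale, and detection p-values. The submitters' processing notes name Partek, and the normalization is not given in the sources used here. The genes and lists were chosen with earlier results of these data known. Every gene of the rule is counted and named, except 1 gene that is counted but not reported here. Genes detected on all arrays are given with each value. Up to 4 genes of other lists are given, those with the highest level, a choice that depends on their probes. Further genes of these lists, among them *Cdh1* and some that a small count called for, were named after their values were seen. Protein sequences had been planned, and upstream sequences were used in their place.

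A symbol was taken to have 1 probe where its bead numbers were whole and its detection p-values lay on steps of 1 in 936 (21998 symbols). The number of arrays limits the precision. Signals were corrected with normexp, fitted on symbols with 1 probe, with an offset of 16, and quantile normalized. The level minus background was tested with limma (one-sided, Benjamini-Hochberg over 30854 symbols, threshold 0.05), and the test was checked on simulated data. Alternatives were other detection thresholds, array numbers, normalizations, offsets, background levels, and leaving out each replicate. Further ones were a mean-variance trend in limma and a fit without low values. Low values were symbols with no detection p under 0.05 on any array. Older symbols were matched through RefSeq (GRCm38.p6). Python 3.11.15, pandas 2.3.3, R 4.3.3, and limma 3.58.1 were used.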

Additional observations from a re-analysis of the deposited data

How the results depend on the processing

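The count of 13 detected genes was 22 with detection on at least 1 array and 8 among the 31 genes with 1 probe, where fewer genes could pass. It lay between 11 and 18 over the other alternatives, and between 14 and 15 without a replicate. The limma count of 18 was 28 with a background level from detection p 0.4 to 0.6, a lower limit by construction. The share of all symbols rose as well, from 25.7% to 36.9%. Otherwise the limma count lay between 15 and 18, beside 23.4% to 25.5% of all symbols where all were tested. With low values left out of the fit it was 15 of 28 genes, beside 55.9% of the symbols kept. Without a replicate it was between 16 and 20, beside 23.9% to 28.1%. Counting genes with a deposited signal above background on every array, an alternative chosen after seeing the data, gave 17, beside 26.3% of all symbols. Over 159 values of the level of 18 genes none changed sign and 6 lost the call, those of *Tjp1*, *Marveld1*, and *Cgn* given above. *Mpp1*, *Mpp5*, and *Cgn* were not tested with low values left out of the fit and have no value there. The median difference of replicate 1 changed sign, to 0.22 with median scaling and to 0.0232 with genes detected on at least 1 array, and that of replicate 3 moved to -0.30 with median scaling. The cause was not tested. No paired analysis was possible because all arrays belong to 1 group. Calls of genes close to background depended on the setting: *Ocln* and *Cldn5* were called with a detection p under 0.05 and by limma with the lower background level, and *Ocln* also without replicate 1.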
